A study of Mus musculus with 8 samples.

Results

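Ubiquitin-specific proteases (Usp genes) form the largest family of mouse deubiquitinases. Members were taken by name, as protein-coding genes whose mouse symbol is Usp followed by a digit, and the naming rule uses no measured value, though the family was picked for study with earlier results of these data known. This gave 54 members of 55385 genes in the count table. The naming rule also takes in Usp6nl, which encodes a GTPase-activating protein for Rab proteins and no protease. Of the members, 49 passed the filter on low counts and were tested, and 5 did not.

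Ubiquitin is a small protein that is attached to other proteins as a single unit or as chains, and some chains send a protein to the proteasome for breakdown. Usp enzymes cut ubiquitin off again through a shared catalytic fold, and members differ in the binding domains around it and so in substrates. The growing oocyte stores mRNAs, transcription is off by the end of growth, and during meiotic maturation some stored mRNAs are translated while many others are broken down. Cell cycle steps of meiosis, such as the separation of homologous chromosomes, depend on proteasomal breakdown of ubiquitinated proteins.

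The oocytes were grown in culture from mouse embryonic stem cells of C57BL/6 x 129/SvJ strain that carry Blimp1-mVenus and Stella-ECFP reporters, and polyadenylated RNA was sequenced from pools of them. They came from 2 lines, a sex-converted XX line (N2DsRed4XO63R2), which goes back to male cells, and a native XX line (H18), so that each kind is a single stem cell line. Oocytes were taken at metaphase II (MII, matured and arrested before fertilisation) or at the germinal vesicle stage (GV, fully grown and held in meiotic prophase). The 4 groups of 2 libraries were sex-converted MII, sex-converted GV, native MII and native GV, and the labels call the libraries of a group biological duplicates. Germ cell-like cells of both lines had been aggregated with somatic cells of fetal female gonads, with retinoic acid and Y27632 in the first culture, and spent 21 days in differentiation culture. GV oocytes were taken after 11 days of growth culture in the presence of dibutyryl-cAMP and IBMX and freed of cumulus cells with a capillary. MII oocytes had a further 16 hours of maturation culture, were stripped with hyaluronidase and were picked by their polar body, so stage and these steps cannot be told apart. Pools held 35 to 58 oocytes at MII and 31 to 158 at GV, and oocytes with the Stella signal were picked at both stages.

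Libraries held 11894026 to 14690428 reads assigned to genes at MII and 10306471 to 14999003 at GV. All 10 oocyte markers listed (among them Zp3, Gdf9 and Bmp15) had reads in every library, with a summed level of 16600 to 20000 reads per 1000000 reads (CPM) at MII and 13100 to 16000 CPM at GV. The 12 granulosa and cumulus markers summed to 59.6 to 103 CPM at MII and 17.8 to 25.3 CPM at GV, with 5 to 10 of them detected, and Foxl2 was at 0 in 6 of 8 libraries. Inhba, Cyp19a1 and Has2 of the granulosa and cumulus list had reads in every library. The 8 stromal markers summed to 4.57 to 58.6 CPM at MII, highest in native replicate 1, and 1.34 to 1.48 CPM at GV. Lum and Col1a2 were at 0 in every library. Col1a1 had reads only in native MII libraries, and Col3a1 only in sex-converted GV replicate 1. Dcn, Pdgfra and Vim had reads in every library, and Thbs1 in every library but native GV replicate 2. The part of other cells in the changes below was not tested. In pools, fewer cells of a type and less RNA per cell cannot be told apart. Poly(A)-selected reads likewise do not separate a change in mRNA amount from a change in poly(A) tail length. CPM was scaled by the trimmed mean of M-values method (TMM), so a difference between stages is relative to other mRNAs and says nothing of the amount per oocyte.

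The family split almost evenly in maturation. In the sex-converted line 19 of 49 tested members were higher at MII than at GV, which is 38.8%, beside 29.3% of all 14929 genes tested, and 20 were lower, which is 40.8% beside 36.2% (edgeR quasi-likelihood test, Benjamini-Hochberg adjusted p under 0.05 over all genes). In the native line 19 were higher, 38.8% beside 29.6% of all genes, and 21 were lower, 42.9% beside 35.7%. The median log2 fold change (MII over GV) of the members was 0.0067 in the sex-converted line, where all genes had -0.35, and 0.022 in the native line, where all genes had -0.31. Across both lines the same 19 members rose, 38.8% beside 26.9% of all genes, and the same 20 fell, 40.8% beside 32%. No member was called in opposite directions. The 4 MII libraries and the 4 GV libraries did not overlap in CPM for 42 of 49 members, while 72.4% of all genes tested had no overlap. The shares of Usp genes lay a little above those of all genes in both directions, and this difference was not tested.

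**Figure D1:**
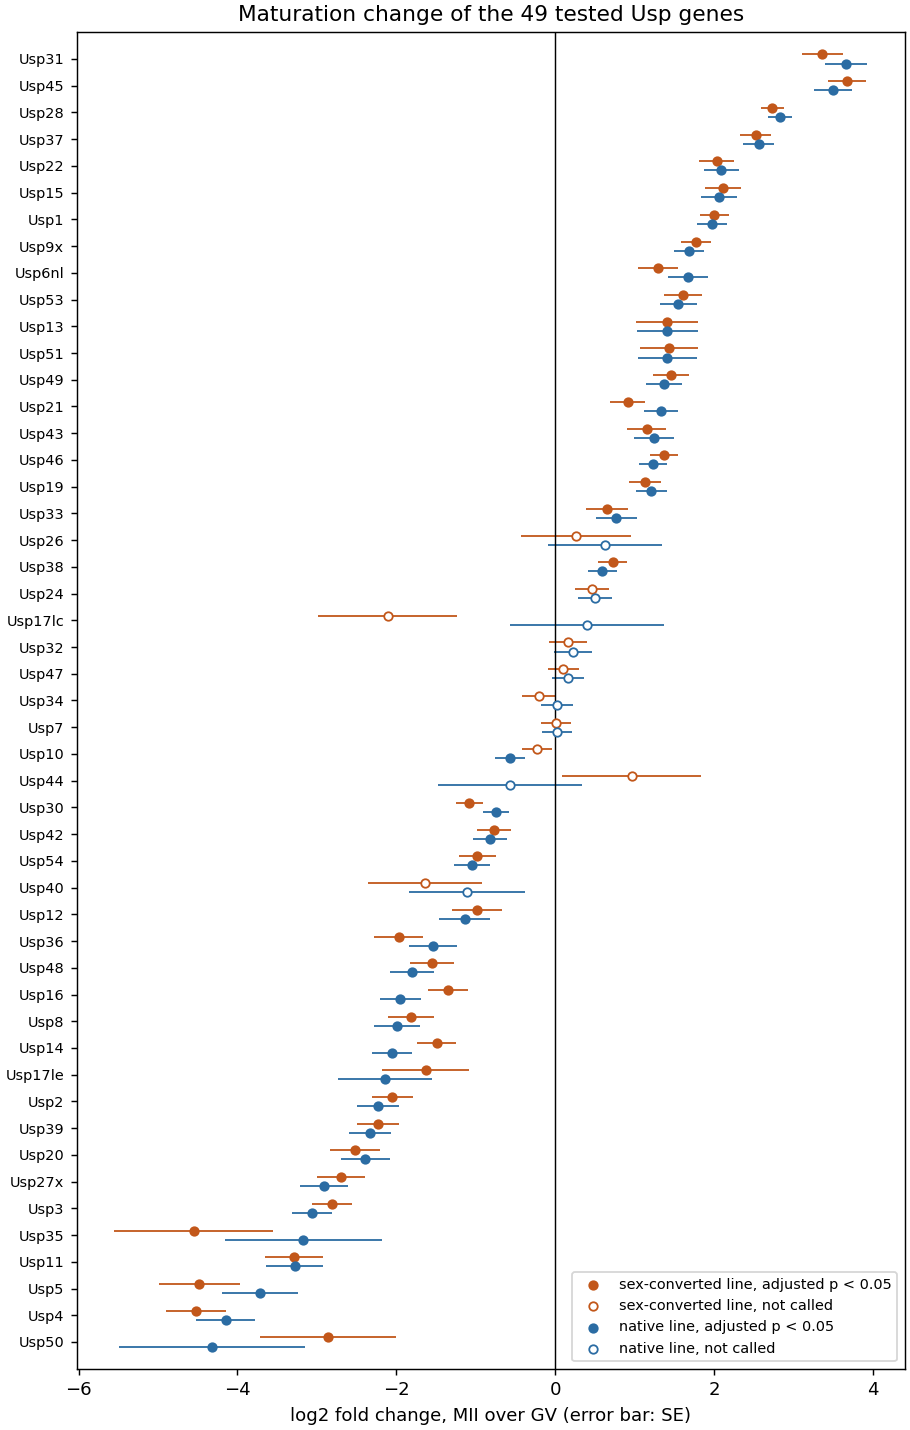
Log2 fold change of MII over GV (horizontal axis, with standard error bars) for the 49 tested Usp genes, in the sex-converted line (orange) and the native line (blue). Filled points passed an adjusted p of 0.05, with Usp31 and Usp45 at the top at log2 changes of 3.36 to 3.67 and Usp4 and Usp5 near the bottom at -3.72 to -4.52, in both lines.

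Changes of at least 2-fold occurred on both sides. No share of all genes at the fold thresholds is given here, so the counts do not show whether Usp changes were larger than those of other genes. Of the called members, 16 rose and 17 fell by at least 2-fold in the sex-converted line, and 17 rose and 18 fell by that much in the native line. At least 4-fold changes were reached by 7 rising and 10 falling members in the sex-converted line and by 6 rising and 12 falling members in the native line. The split depended on scaling. With library totals in place of TMM factors the median of all genes shifted by -0.93 in the sex-converted line and by -0.91 in the native line, and the counts became 9 higher and 27 lower in the sex-converted line and 10 higher and 26 lower in the native line. Of all 14929 genes, 2372 were higher and 7785 lower with library totals in the sex-converted line, and 2488 and 7614 in the native line. The share of member calls that were higher was then 25.0% and not 48.7% in the sex-converted line, and 27.8% and not 47.5% in the native line. The rises that lost their call in both lines were those of Usp13, Usp19, Usp21, Usp33, Usp38, Usp43, Usp46, Usp49 and Usp51. The rise of Usp6nl also lost it in the sex-converted line. Usp7, Usp32, Usp34, Usp40 and Usp47 were called lower in both lines with library totals, and Usp10 and Usp17lc also in the sex-converted line.

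The 7 strongest rises at 10 CPM or more were the same genes in both lines, namely Usp31, Usp45, Usp28, Usp37, Usp22, Usp15 and Usp1. All of them kept their call with library totals. Usp45, linked to DNA repair through the nuclease subunit Ercc1, had 113 and 130 CPM in sex-converted MII oocytes against 10.3 and 8.92 CPM in sex-converted GV oocytes. In the native line it had 111 and 121 CPM at MII against 11.6 and 8.93 CPM at GV. The log2 fold change of Usp45 was 3.67 ± 0.24 (SE) in the sex-converted line and 3.49 ± 0.238 in the native line, with edgeR adjusted p of 7.29e-07 and 8.33e-07. Usp31, a little studied protease, had 201 and 232 CPM in sex-converted MII oocytes against 24.1 and 18.2 CPM in sex-converted GV oocytes. Its native values were 163 and 221 CPM at MII against 13.1 and 17.4 CPM at GV, a 12.6-fold difference, which was 10.2-fold in the sex-converted line. The MII and GV libraries of both genes lay far apart, as follows from their choice as the largest rises.

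Usp28, known for stabilising Myc against the ubiquitin ligase subunit Fbxw7 and for a part in the DNA damage checkpoint, ranked 1 in the family by level per length at MII and 5 at GV. Usp28 (ENSMUSG00000032267.8, chr9:48985375-49042517 on the plus strand, GRCm38) had 1820 and 1760 CPM in sex-converted MII oocytes against 263 and 276 CPM in sex-converted GV oocytes. Native oocytes had 1730 and 1700 CPM at MII against 243 and 239 CPM at GV. The replicates of each group were close together, and the log2 fold change was 2.73 ± 0.147 (SE) in the sex-converted line and 2.83 ± 0.148 in the native line, with edgeR adjusted p of 3.76e-07 and 2.77e-07. Usp37, which removes ubiquitin from cyclin A at the start of S phase, had 365 and 387 CPM in sex-converted MII oocytes against 60.6 and 70.3 CPM at GV. In native oocytes Usp37 had 395 and 388 CPM at MII against 74.4 and 58.6 CPM at GV. The rises of Usp37 were 5.74-fold in the sex-converted line and 5.89-fold in the native line.

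The 7 strongest falls at 10 CPM or more in GV oocytes were likewise shared, namely Usp4, Usp5, Usp11, Usp3, Usp27x, Usp20 and Usp39. Usp4 (ENSMUSG00000032612.14, chr9:108347853-108392545 on the plus strand), a relative of Usp15 with roles in TGF-beta signalling and splicing, had 6.68 and 4.66 CPM in sex-converted MII oocytes against 134 and 126 CPM in sex-converted GV oocytes. In the native line it had 9.93 and 4.05 CPM at MII against 118 and 133 CPM at GV. Its level was 23.0-fold lower at MII in the sex-converted line and 17.7-fold lower in the native line. Usp5, also called isopeptidase T, which takes apart free ubiquitin chains, had 2.74 and 1.71 CPM in sex-converted MII oocytes against 64 and 34.6 CPM at GV, and in native oocytes 5.73 and 1.97 CPM at MII against 44.3 and 59.2 CPM at GV. Native MII replicate 1 was the highest MII library for both genes and was also the library with the highest summed stromal and granulosa marker levels. Without it the native log2 fold change was -4.96 for Usp4 and -4.72 for Usp5, where all libraries gave -4.15 and -3.72, and without native MII replicate 2 it was -3.68 and -3.2.

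On the X chromosome Usp11, the third relative of Usp4 and Usp15, had 5.04 and 2.28 CPM in sex-converted MII oocytes against 37.6 and 33.4 CPM at GV, and in native oocytes 3.82 and 3.36 CPM at MII against 38 and 31.8 CPM at GV. Its log2 fold change was -3.29 ± 0.361 (SE) in the sex-converted line and -3.28 ± 0.361 in the native line. In the sex-converted line it was -3.96 without sex-converted MII replicate 1 and -2.81 without MII replicate 2. Usp39 lacks protease activity and is a part of the spliceosome, and it had 15.4 and 16.5 CPM in sex-converted MII oocytes against 69.9 and 80.1 CPM at GV. Its native values were 20 and 13.2 CPM at MII against 95.1 and 72.1 CPM at GV. Every MII library was below every GV library for all 7 of these genes. They were chosen for their large falls, so this adds no support, and 72.4% of all genes tested had no overlap between stages.

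Comparison of members with each other used CPM per kilobase of merged exons, averaged over the 4 libraries of a stage. At MII the order was Usp28 with 301, Usp19 with 256, Usp1 with 123, Usp46 with 115, Usp15 with 112 and Usp9x with 92.6 CPM per kilobase. At GV it was Usp19 with 114, Usp7 with 79.8, Usp30 with 54.5, Usp46 with 46.8, Usp28 with 43.8 and Usp38 with 36.6 CPM per kilobase. With the length of the longest coding transcript instead, Usp28 and Usp19 stayed at ranks 1 and 2 at MII and Usp19 and Usp7 at ranks 1 and 2 at GV, and others moved. Usp46 then ranked 3 at both stages, Usp1 ranked 6 at MII and not 3, Usp7 ranked 5 at MII and not 7, and Usp16 ranked 6 at GV and not 15. Some neighbours in the orders per merged exons had ranges over libraries that overlapped. At MII this holds for Usp1 (114 to 129), Usp46 (97.4 to 128) and Usp15 (103 to 121), while Usp28 (291 to 313) and Usp19 (240 to 279) stood apart from each other and from the rest. At GV Usp19 ranged over 95 to 133 and Usp7 over 66.8 to 96.5 CPM per kilobase, so their ranges met, and those of Usp30 (50.3 to 57.7), Usp46 (43.8 to 51.0) and Usp28 (41.1 to 47.3) met in the same way.

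**Figure D2:**
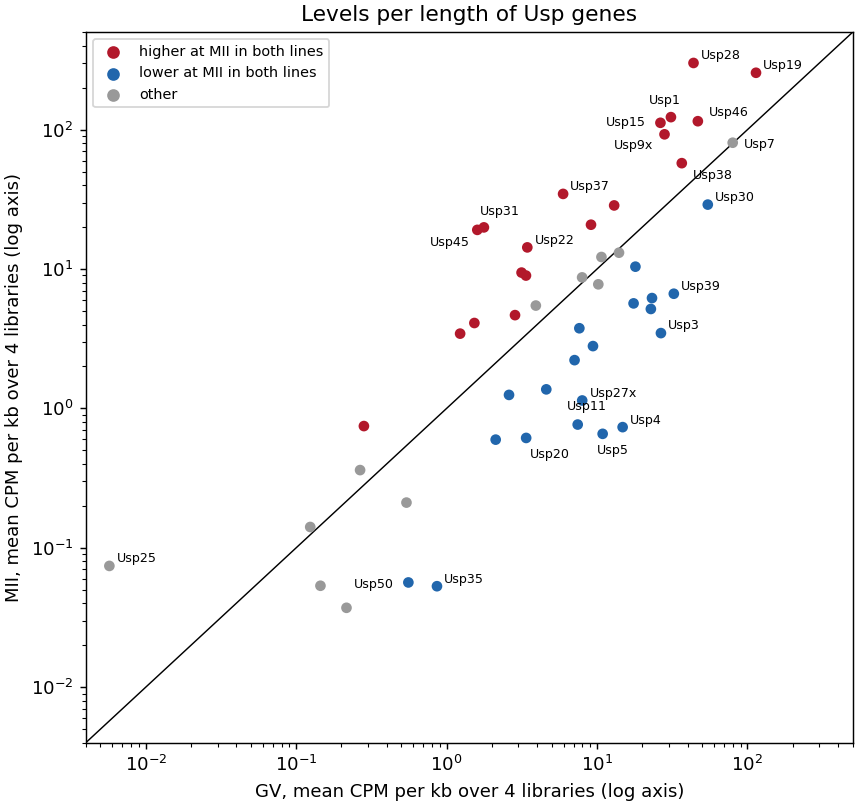
Mean CPM per kilobase over the 4 MII libraries (vertical log axis) against the mean over the 4 GV libraries (horizontal log axis), 1 point a gene, with the line of equal levels; members whose mean was 0 at a stage are not drawn. Usp28 lies highest at MII with 301, above Usp19 with 256, and Usp7 lies on the line with 80.6 at MII and 79.8 at GV.

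The family total depended on the scale, and shares within the family moved. Scaled by TMM, the CPM of all members summed to 11300 and 11800 at MII against 5690 and 5830 at GV in the sex-converted line, and to 11500 and 11500 at MII against 6140 and 5500 at GV in the native line. Summed over members, the TPM values computed from the counts (CPM per length, set to one total in all libraries) were 3950 and 4020 at MII against 3880 and 3710 at GV in the sex-converted line, and 3810 and 3940 at MII against 3720 and 3570 at GV in the native line. The 5 most abundant members of a library held 63.5% and 63% of the family's per-length level in sex-converted MII oocytes against 45.6% and 42.3% at GV. In the native line they held 63.5% and 62.4% at MII against 40.6% and 46.4% at GV. Usp28 alone held 20.5% to 21.9% of the family's per-length level at MII and 5.13% to 6.1% at GV. The share of Usp30 moved the other way, with 1.79% to 2.25% at MII and 6.2% to 7.52% at GV. These shares are within a library and do not depend on scaling between libraries.

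Usp1, Usp12 and Usp46 form a small group that is activated by binding WD40 repeat proteins, Wdr48 for all of them and Wdr20 for Usp12 and Usp46. Usp1, which removes ubiquitin from the DNA repair proteins Fancd2 and Pcna, had 424 and 481 CPM in sex-converted MII oocytes against 101 and 125 CPM at GV, and in native oocytes 476 and 452 CPM at MII against 127 and 110 CPM at GV. Usp46 had 909 and 941 CPM in sex-converted MII oocytes against 372 and 344 CPM at GV, and in native oocytes 763 and 1000 CPM at MII against 352 and 400 CPM at GV. Its close relative Usp12 ran the other way at a far lower level, with 6.35 and 7.42 CPM in sex-converted MII oocytes against 13.8 and 13.6 CPM at GV, and in native oocytes 3.82 and 5.67 CPM at MII against 10.6 and 10.2 CPM at GV. Usp1 rose 4.01-fold in the sex-converted line and 3.91-fold in the native line, and Usp46 rose 2.58-fold and 2.35-fold. The fall of Usp12 had edgeR adjusted p of 0.0164 in the sex-converted line and 0.00925 in the native line, and it was lost without any single library of the sex-converted line and without native MII replicate 1, with adjusted p of up to 0.0974.

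The WD40 partners also parted. Wdr20 had 1150 and 1130 CPM in sex-converted MII oocytes against 220 and 262 CPM at GV, and in native oocytes 1240 and 1300 CPM at MII against 247 and 232 CPM at GV. Wdr48 had 32 and 41.3 CPM in sex-converted MII oocytes against 68.5 and 80.2 CPM at GV, and in native oocytes 38.3 and 41.7 CPM at MII against 82.3 and 63.7 CPM at GV. Wdr20 thus rose by 2.24 and 2.41 on the log2 scale in the sex-converted and native lines, and Wdr48 fell by 1.02 and 0.87.

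**Figure D3:**
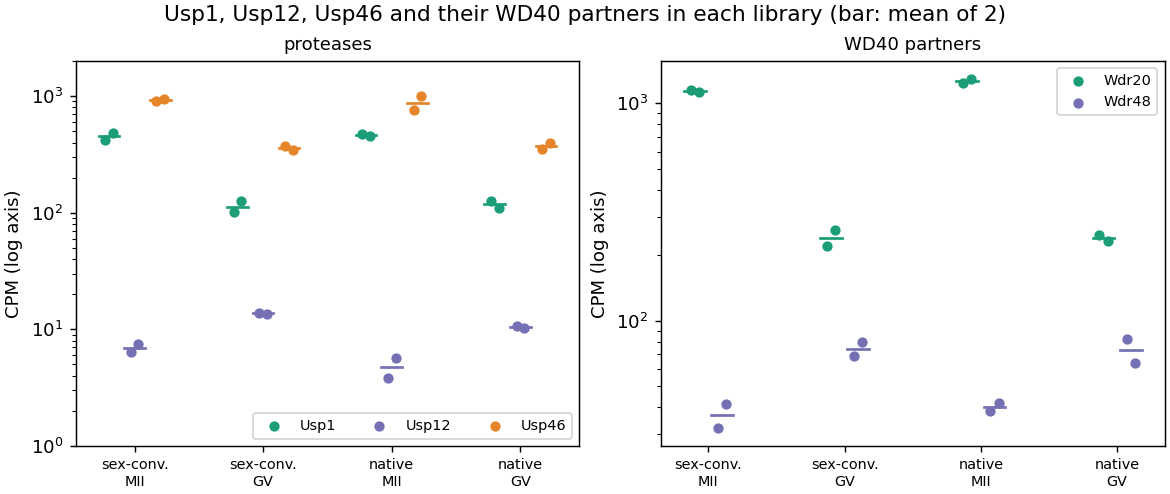
CPM (log axes) of Usp1, Usp12 and Usp46 on the left and of Wdr20 and Wdr48 on the right, in each library of the 4 groups, with a bar at the mean of 2 libraries. Usp1, Usp46 and Wdr20 lie higher in every MII library than in any GV library, and Usp12 and Wdr48 lie lower.

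Members that act on histones or in the nucleolus went both ways, with 4 of 11 higher and 5 lower in each line. All genes had 29.3% higher and 36.2% lower in the sex-converted line. In the native line all genes had 29.6% higher and 35.7% lower, and the group was not tested. The median log2 fold change of these 11 members was 0.0067 in the sex-converted line and -0.57 in the native line. All genes had -0.35 and -0.31. The sex-converted median is the value of Usp7, and the native median is that of Usp44, which had at most 10 reads a library. Usp22, the protease of the SAGA complex that removes ubiquitin from histone H2B, had 84 and 72 CPM in sex-converted MII oocytes against 19.9 and 18.4 CPM at GV, and in native oocytes 65 and 59.1 CPM at MII against 13.5 and 15.5 CPM at GV. Usp27x and Usp51 can take its place on the same adaptor proteins. Usp51 rose with it, with 10.3 and 7.8 CPM in sex-converted MII oocytes against 2.74 and 3.95 CPM at GV, and in native oocytes 10.3 and 7.75 CPM at MII against 3.06 and 3.73 CPM at GV. Usp27x fell, with 5.04 and 4.85 CPM in sex-converted MII oocytes against 34 and 30.4 CPM at GV, and in native oocytes 3.63 and 6.02 CPM at MII against 38.5 and 33.6 CPM at GV. At GV Usp27x was therefore the higher per length, and at MII Usp22 was.

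Usp3 and Usp16, which act on histone H2A, both fell, while Usp21, Usp22, Usp49 and Usp51 of the same group rose. Whether the direction goes with the histone acted on was not tested. Usp3 had 21.7 and 26.4 CPM in sex-converted MII oocytes against 147 and 191 CPM at GV, and in native oocytes 22.2 and 24.6 CPM at MII against 231 and 160 CPM at GV. Usp16, which is needed for mitotic progression in human cells, had 53.9 and 71.3 CPM in sex-converted MII oocytes against 137 and 182 CPM at GV, and in native oocytes 41.1 and 48.3 CPM at MII against 203 and 141 CPM at GV. Usp49, a protease of histone H2B, had 72.7 and 72.7 CPM in sex-converted MII oocytes against 23.9 and 29 CPM at GV, and in native oocytes 74.7 and 88.3 CPM at MII against 35 and 27.9 CPM at GV. Usp21 and Usp49 rose by 0.91 and 1.46 on the log2 scale in the sex-converted line and by 1.33 and 1.37 in the native line. The nucleolar Usp36 had log2 fold changes of -1.97 and -1.54 in the sex-converted and native lines, and Usp42, a protease that acts on p53, had -0.77 and -0.82. The fall of Usp42 was lost without sex-converted MII replicate 2 in that line, and without native MII replicate 1 or GV replicate 1 in the native line.

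Usp7, which acts on p53 and its ligase Mdm2 and on the DNA methylation factor Uhrf1, had 604 and 581 CPM in sex-converted MII oocytes against 519 and 661 CPM at GV, and in native oocytes 649 and 670 CPM at MII against 750 and 549 CPM at GV. The stages overlapped, and the 95% interval of the log2 fold change was -0.41 to 0.42 in the sex-converted line and -0.39 to 0.44 in the native line. With library totals it was called lower, at -0.93 in the sex-converted line and -0.89 in the native line. Usp44, known for guarding the spindle checkpoint through Cdc20 and for acting on histone H2B, was barely detected. It had 7 and 7 reads in sex-converted MII oocytes against 10 and 3 reads at GV, and in native oocytes 4 and 4 reads at MII against 10 and 10 reads at GV. No difference was detectable at that depth.

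Among proteases that work on free ubiquitin chains or at the proteasome, Usp5 and Usp14 fell and Usp13 rose. Usp14, which is bound to the proteasome and trims chains there, had 32.5 and 21.9 CPM in sex-converted MII oocytes against 70.4 and 82.7 CPM at GV, and in native oocytes 18.9 and 20 CPM at MII against 85.7 and 75.1 CPM at GV. Usp13, the closest relative of Usp5, had 5.8 and 4.66 CPM in sex-converted MII oocytes against 2.21 and 1.75 CPM at GV, and in native oocytes 5.54 and 6.71 CPM at MII against 2.28 and 2.32 CPM at GV. The rise of Usp13 in the sex-converted line had an edgeR adjusted p of 0.00839, and it was lost without sex-converted MII replicate 1 or GV replicate 2, at up to 0.0561.

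Of 8 members tied to membranes and organelles, 5 were lower and 2 higher in each line, where all genes had 36.2% lower and 29.3% higher in the sex-converted line and 35.7% lower and 29.6% higher in the native line. Their median log2 fold change was -1.45 in the sex-converted line and -1.37 in the native line, beside -0.35 and -0.31 for all genes, with no test of the group. Usp8, which acts on endosomes with Stam proteins and spares receptors from lysosomal breakdown, had 28 and 23.7 CPM in sex-converted MII oocytes against 71.1 and 111 CPM at GV, and in native oocytes 24.6 and 27.4 CPM at MII against 125 and 81 CPM at GV. Usp30, anchored in the mitochondrial outer membrane, where it opposes Parkin-dependent mitophagy, had 162 and 158 CPM in sex-converted MII oocytes against 350 and 328 CPM at GV, and in native oocytes 197 and 185 CPM at MII against 305 and 339 CPM at GV. Usp20, first known as a partner of the von Hippel-Lindau protein, had 5.58 and 4.85 CPM in sex-converted MII oocytes against 32.5 and 27.5 CPM at GV, and in native oocytes 6.97 and 4.74 CPM at MII against 26.1 and 35.9 CPM at GV. Usp20 and Usp2 both fell, with log2 fold changes of -2.52 and -2.39 for Usp20 and of -2.05 and -2.23 for Usp2 in the sex-converted and native lines.

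The highest of them, Usp19 (ENSMUSG00000006676.16, chr9:108490602-108502337), which has a form anchored in the endoplasmic reticulum membrane, had 1840 and 1730 CPM in sex-converted MII oocytes against 939 and 687 CPM at GV, and in native oocytes 1970 and 1690 CPM at MII against 669 and 911 CPM at GV. It was a rise of 2.19-fold in the sex-converted line and 2.31-fold in the native line in a gene that already had the highest mean level per length at GV. Usp33, a relative of Usp20, had 38.1 and 49.2 CPM in sex-converted MII oocytes against 24.1 and 31.4 CPM at GV, and in native oocytes 47.2 and 46.2 CPM at MII against 32.2 and 22.5 CPM at GV. Its call was fragile, with edgeR adjusted p of 0.0453 and 0.0232 in the sex-converted and native lines and up to 0.264 and 0.157 when a single library was left out. With library totals its log2 fold change was -0.28 in the sex-converted line and -0.14 in the native line. Usp32, found on the Golgi and on endosomes, was not called, with log2 fold changes of 0.16 in the sex-converted line and 0.22 in the native line.

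The signalling, cell cycle and DNA damage group held 12 tested members. Of these 5 rose in both lines, 3 fell in the sex-converted line and 4 fell in the native line. All genes had 29.3% higher and 36.2% lower in the sex-converted line. In the native line all genes had 29.6% higher and 35.7% lower, and the group was not tested. Usp15, a partner of Smad proteins and Smurf2 in TGF-beta signalling, had 1710 and 2010 CPM in sex-converted MII oocytes against 377 and 485 CPM at GV, and in native oocytes 1940 and 1790 CPM at MII against 544 and 348 CPM at GV. Usp9x, a very large X-linked protease related to the fly gene fat facets, had 1400 and 1460 CPM in sex-converted MII oocytes against 423 and 420 CPM at GV, and in native oocytes 1260 and 1450 CPM at MII against 497 and 349 CPM at GV. Its rise was 3.4-fold in the sex-converted line and 3.2-fold in the native line. Usp48 fell by 1.55 in the sex-converted line and by 1.8 in the native line on the log2 scale.

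Some calls of other members of that group depended on scaling. Usp10, which binds the stress granule protein G3bp1, had a log2 fold change of -0.23 in the sex-converted line with an edgeR adjusted p of 0.277, and -0.57 in the native line with 0.0182, and the native call was lost without native MII replicate 1, MII replicate 2 or GV replicate 1. Usp34, which acts on axin in Wnt signalling, had -0.21 in the sex-converted line and 0.022 in the native line, and Usp47 had 0.099 and 0.16. Usp24 had 0.46 and 0.5, with edgeR adjusted p of 0.0813 and 0.0607. With relative log expression factors in place of TMM, Usp24 was called higher in the native line, at 0.54 with an edgeR adjusted p of 0.0436. With library totals Usp24 was called in neither line, at -0.48 in the sex-converted line and -0.41 in the native line. The 95% interval of the log2 fold change of Usp34 was -0.66 to 0.24 in the sex-converted line and -0.43 to 0.47 in the native line. With library totals Usp10, Usp34 and Usp47 were called lower in both lines, with log2 fold changes of -1.17, -1.15 and -0.84 in the sex-converted line and -1.48, -0.88 and -0.75 in the native line.

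Among members without known or with atypical protease activity, Usp53 and Usp6nl rose, and Usp39, Usp50 and Usp54 fell. Usp53 had 115 and 133 CPM in sex-converted MII oocytes against 33.9 and 47.2 CPM at GV, and in native oocytes 111 and 115 CPM at MII against 43.9 and 33.3 CPM at GV. Its relative Usp54 had 31.4 and 33.4 CPM in sex-converted MII oocytes against 58.5 and 69.3 CPM at GV, and in native oocytes 39.9 and 31.7 CPM at MII against 82.9 and 65.9 CPM at GV. The Rab regulator Usp6nl had 24.4 and 28.2 CPM in sex-converted MII oocytes against 11.1 and 10.3 CPM at GV, and in native oocytes 26.7 and 31.6 CPM at MII against 9.47 and 8.79 CPM at GV. Usp50 had 1 and 5 reads in sex-converted MII oocytes against 24 and 62 reads at GV, and in native oocytes 0 and 1 reads at MII against 24 and 16 reads at GV. Usp50 was called lower with edgeR adjusted p of 0.0126 in the sex-converted line and 0.00728 in the native line. The calls were lost without sex-converted MII replicate 1 or GV replicate 2, at up to 0.106, and without native MII replicate 1, at 0.0536. By counting, the GV level was 23.8 times the MII level in the native line, with a 95% interval of 4.03 to 962 that covers counting error only. Usp50 overlaps Usp8 on the other strand, and since no source used here gives the strand of the counting, its reads cannot be told from those of Usp8.

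Of the less studied members, Usp43 rose beside Usp31, with 108 and 104 CPM in sex-converted MII oocytes against 57.9 and 37.9 CPM at GV, and in native oocytes 94.5 and 87.9 CPM at MII against 33.3 and 44 CPM at GV. Usp38 had 317 and 358 CPM in sex-converted MII oocytes against 192 and 219 CPM at GV, and in native oocytes 322 and 322 CPM at MII against 241 and 188 CPM at GV. Its call was lost without sex-converted MII replicate 2 in the sex-converted line, and without native MII replicate 1, MII replicate 2 or GV replicate 2 in the native line, and its log2 fold change with library totals was -0.22 in the sex-converted line and -0.32 in the native line. Usp35, grouped above with the membrane proteases for its mitochondrial form, had 0.547 and 0 CPM in the sex-converted line at MII against 8.23 and 4.34 CPM at GV, and 0.573 and 0 CPM in the native line at MII against 2.17 and 3.52 CPM at GV. The MII values stand for 5 and 0 reads in the sex-converted line and 6 and 0 in the native line. It was called lower in both lines, with edgeR adjusted p of 0.00201 in the sex-converted line and 0.0154 in the native line, and the native call was lost without native MII replicate 2, at 0.0689. Usp26, known from the testis, and Usp40 were below 3 CPM in every library and were not called.

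The Usp17-like genes are near-identical copies in a cluster, so reads may be lost or shared between them. Usp17le had 1.97 and 1.05 CPM in sex-converted MII oocytes against 6.32 and 3.02 CPM at GV, and in native oocytes 0.573 and 1.16 CPM at MII against 3.68 and 3.87 CPM at GV. Usp17lc had log2 fold changes of -2.11 in the sex-converted line and 0.4 in the native line and was not called, at an edgeR adjusted p of 0.053 in the sex-converted line. It was called lower in the sex-converted line with the replicate block, without a filter, with library totals, in a fit of only the libraries compared, and without sex-converted GV replicate 2, native GV replicate 1 or native GV replicate 2. Its log2 fold change there ranged over -2.95 to -1.22 when a single library was left out, lowest without sex-converted MII replicate 1 and nearest 0 without sex-converted GV replicate 1. Usp17le was called lower with edgeR adjusted p of 0.0221 in the sex-converted line and 0.0082 in the native line. The calls were lost without sex-converted MII replicate 2 or GV replicate 1, at up to 0.194, and without native MII replicate 1, at 0.0648. The 5 members that were not tested were Usp17la, Usp17lb, Usp17ld, Usp18 and Usp25. Usp17la had 0 reads in every MII library, against 4 and 14 reads at GV in the sex-converted line and 4 and 3 reads at GV in the native line. Usp17lb had 0 and 0 reads in sex-converted MII oocytes against 13 and 8 reads at GV, and in native oocytes 0 and 2 reads at MII against 2 and 1 reads at GV. Usp17ld had no read in any library, and Usp18, which removes the ubiquitin-like Isg15, had 2 reads in sex-converted MII replicate 1 and none elsewhere. Usp25, the closest relative of the abundant Usp28, had 2 and 0 reads in sex-converted MII oocytes against 2 and 0 reads at GV, and in native oocytes 9 and 4 reads at MII against 0 and 0 reads at GV. A count of 0 allows up to 3 reads, which is 0.285 to 0.347 CPM at MII and 0.146 to 0.211 CPM at GV.

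Relatives were also read in pairs. Of 13 pairs of close relatives taken from general knowledge of the family, 12 had both members tested, and 8 of these, or 66.7%, were called in opposite directions in each line. Of all 1176 pairs that the 49 tested members can form, 32.3% were called in opposite directions in the sex-converted line and 33.9% in the native line. The pairs were listed with earlier results of these data known, Usp4 and Usp22 are each in 2 of them, and no test of the excess was made. The ratio of the members' levels per length within a library is free of scaling between libraries. For 9 pairs the MII and GV ranges of this ratio over 4 libraries did not overlap. The ranges could not be compared for Usp28 over Usp25 and Usp38 over Usp35, because Usp25 and Usp35 lacked reads in some libraries. No share of other pairs without overlap is given here, while 72.4% of all genes tested had no overlap between stages. The count of 9 therefore does not show whether these pairs were more separated than other pairs. Usp15 over Usp4 was 133 and 224 in sex-converted MII oocytes against 1.46 and 2.00 at GV, and over both lines it ranged over 101 to 229 at MII and 1.36 to 2.40 at GV. With the length of the longest coding transcript in place of merged exons, an alternative added after the data were seen, the ratio was 62.0 to 140 at MII and 0.83 to 1.47 at GV. Which of them was higher at GV thus depended on the length used, and the excess of Usp15 at MII did not.

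Some pairs exchanged places. Usp45 over Usp16 ranged over 2.77 to 4.1 at MII and 0.0745 to 0.114 at GV, Usp22 over Usp27x over 8.6 to 15.7 at MII and 0.307 to 0.53 at GV, and Usp53 over Usp54 over 2.01 to 2.87 at MII and 0.364 to 0.491 at GV. In each of these 3 pairs the rarer transcript at GV was the more abundant at MII in all 8 libraries on this scale. With transcript lengths this also held for Usp22 with Usp27x and Usp53 with Usp54, while Usp45 over Usp16 was 0.974 to 1.44 at MII and 0.0262 to 0.0399 at GV. Usp46 over Usp12 ranged over 75.0 to 118 at MII and 14.9 to 23.2 at GV, Usp33 over Usp20 over 6.31 to 9.45 at MII and 0.585 to 1.15 at GV, and Usp13 over Usp5 over 0.588 to 2.07 at MII and 0.021 to 0.0313 at GV. Usp31 and Usp43 rose together, and their ratio still moved, with 0.794 to 1.16 at MII and 0.182 to 0.221 at GV. The ratios of Usp22 to Usp51 and of Usp49 to Usp44 overlapped between stages.

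The count of opposite pairs depended on scaling and on single libraries. With library totals 4 pairs were called in opposite directions in each line, namely Usp4 with Usp15, Usp22 with Usp27x, Usp16 with Usp45 and Usp53 with Usp54. Leaving out single libraries gave 5 to 8 in each line, with the lowest count of 5 without sex-converted MII replicate 1 or replicate 2 in that line and without native MII replicate 1 in the native line.

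**Figure D4:**
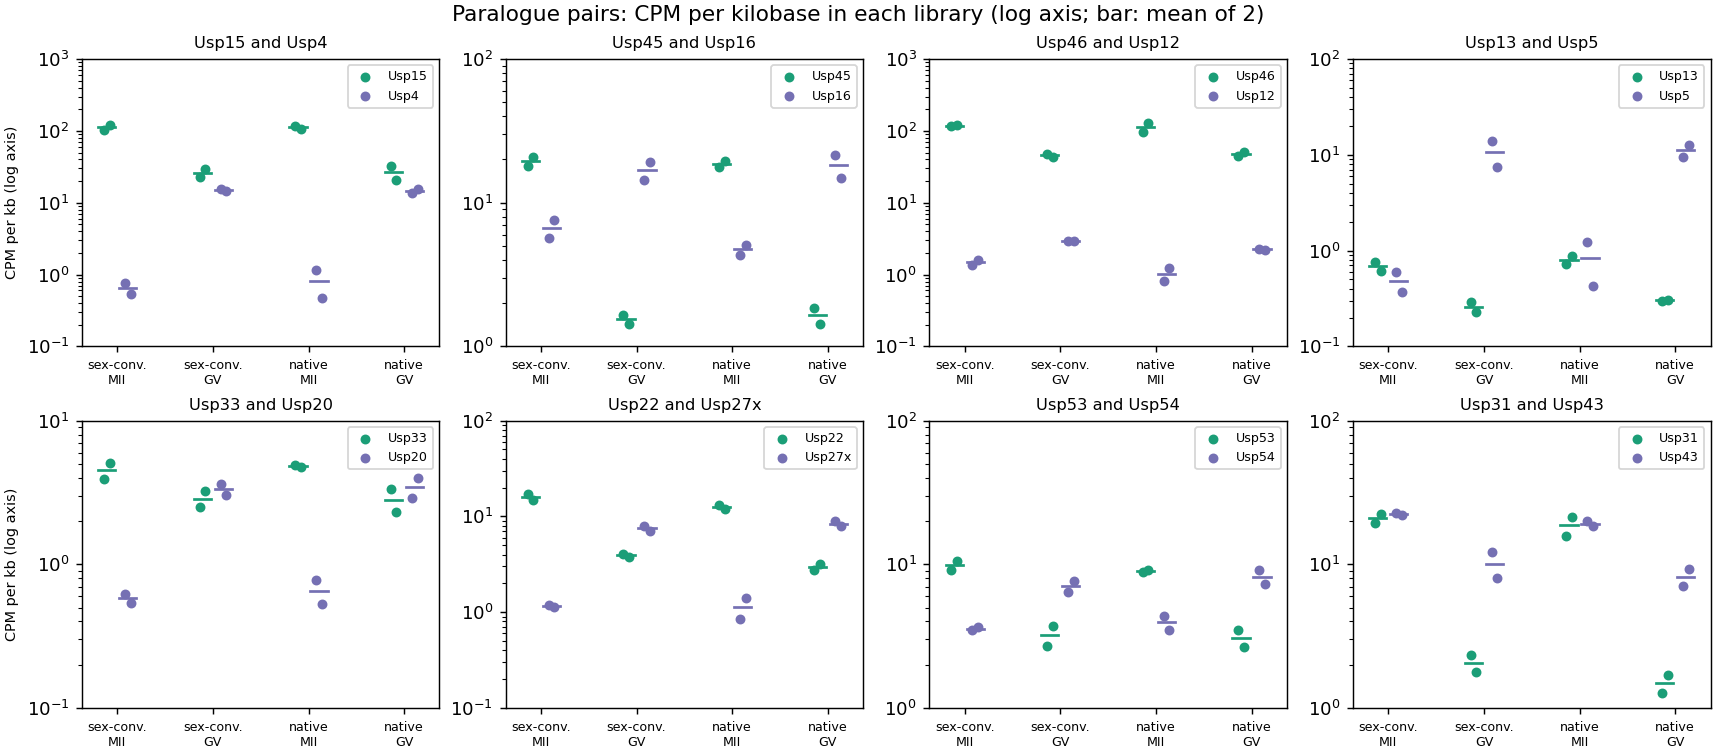
CPM per kilobase of merged exons (log axes) of both members of 8 pairs in each library of the 4 groups, with a bar at the mean of 2 libraries. In the panels of Usp45 and Usp16, Usp22 and Usp27x, and Usp53 and Usp54 the colours change order between MII and GV, with Usp45 over Usp16 at 2.77 to 4.1 at MII and 0.0745 to 0.114 at GV.

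The lines were compared to ask whether oocytes of the sex-converted line differ from those of the native line. No member was called between sex-converted and native oocytes at GV or MII, or in the line by stage interaction, by edgeR or by DESeq2. Of all genes 0.0134% were called at GV, 0.0134% at MII and 0% in the interaction by edgeR. At an unadjusted p under 0.05 there was 1 member at GV, Usp17lc with a log2 difference (sex-converted over native) of 2.51, and 0 at MII and 0 in the interaction, while all genes had 2.14% at GV, 3.68% at MII and 2.2% in the interaction. The 95% interval of the difference lay within 2-fold for 39 of 49 members at GV and for 36 of 49 at MII. For the other members these data do not exclude a 2-fold difference.

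The X-linked members are of interest because both lines are XX by different routes. For Usp9x the log2 difference of sex-converted over native was -0.0068 at GV (95% interval -0.41 to 0.39) and 0.083 at MII (-0.32 to 0.48). Usp11 had 0.023 at GV (-0.66 to 0.71) and 0.012 at MII (-0.83 to 0.85), and Usp27x had -0.16 at GV (-0.76 to 0.43) and 0.045 at MII (-0.65 to 0.74). For Usp51 it was -0.015 at GV (-0.83 to 0.8) and -0.0023 at MII (-0.79 to 0.79). The low Usp26 had the widest intervals of the 5 X-linked members, with 0.4 at GV (-1.13 to 1.92) and 0.036 at MII (-1.55 to 1.62). The change of Usp28 in the sex-converted line differed from that in the native line by -0.098 (-0.53 to 0.33) on the log2 scale.

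Other genes of the pathway were read from lists of ubiquitin genes, Usp partners and the other deubiquitinase families. The counts below stand beside 29.3% higher and 36.2% lower among all genes in the sex-converted line and 29.6% higher and 35.7% lower in the native line, with medians of -0.35 and -0.31, and no list was tested. Of 6 ubiquitin and E1 genes, 1 rose and 4 fell in the sex-converted line and 0 rose and 4 fell in the native line, with median log2 fold changes of -1.18 and -1.24. The polyubiquitin gene Ubb had 82.8 and 98.6 CPM in sex-converted MII oocytes against 381 and 341 CPM at GV, and in native oocytes 119 and 72 CPM at MII against 371 and 479 CPM at GV. Of 16 partner genes 9 rose and 2 fell in each line, with medians of 0.97 in the sex-converted line and 1.14 in the native line. Mdm2, the ligase of p53 that Usp7 protects, rose by 2.56 and 2.55 in the sex-converted and native lines, and Cdc20, the activator of the anaphase-promoting complex, by 2.17 and 2.23. Huwe1, a ubiquitin ligase, fell by 1.53 and 1.32.

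The other deubiquitinase families were listed by family and not by enzyme activity, and the Usp-like genes Pan2, Cyld and Uspl1 were counted with them. Of their 37 tested genes 11 rose and 15 fell in the sex-converted line, and 11 rose and 17 fell in the native line. Their median log2 fold change was -0.012 in the sex-converted line and -0.45 in the native line. The JAMM family list of 11 genes holds parts of the proteasome lid, the COP9 signalosome and the translation factor eIF3, and genes outside these complexes. None of the 11 was higher, with 6 lower in the sex-converted line and 7 in the native line. The median log2 fold changes of the list were -1.3 and -1.52. Brcc3, Stambp, Stambpl1 and Mysm1 were called in neither line. The OTU family went both ways, with 5 higher and 4 lower of 12 in the sex-converted line and 5 higher and 5 lower in the native line. Otub1 had 2.63 and 1.24 CPM in sex-converted MII oocytes against 128 and 126 CPM at GV, and in native oocytes 7.73 and 1.74 CPM at MII against 148 and 113 CPM at GV. Otud1 had 123 and 108 CPM in sex-converted MII oocytes against 19.3 and 16.2 CPM at GV, and in native oocytes 107 and 115 CPM at MII against 11.1 and 15 CPM at GV.

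The ends of the 3' UTRs were read because the letters TTTTAT or TTTTAAT there are those of the cytoplasmic polyadenylation element, which is known to recruit stored oocyte mRNAs for tail lengthening when it lies near the polyadenylation signal, AATAAA or ATTAAA. These letters were searched on the transcript strand in the last 150 bases of the annotated 3' UTR of each member's longest coding transcript. TTTTAAT can overlap AATAAA. Stretches of 30 bases are given for 3 members that rose and hold both, and for 3 that fell and hold only the signal, with the element and the signal in capitals. They come from GENCODE M21 transcripts on GRCm38 and run in the sense of the transcript.
Usp28, chr9:49042468-49042497, plus strand: gcaggTTTTATaaatgtgcAATAAAagtat
Usp37, chr1:74435523-74435552, minus strand: ttgTTTTAATgtgtgagagacATTAAAgcc
Usp22, chr11:61151786-61151815, minus strand: tatcatAATAAAgctgcaTTTTATtctgaa
Usp3, chr9:66514651-66514680, minus strand: agcaccagttgttggccaaaAATAAAcacc
Usp5, chr6:124815029-124815058, minus strand: atgccaaaatacatgatgtgAATAAAagta
Usp27x, chrX:7371289-7371318, minus strand: cacagaaaatgtataaaaatAATAAAaaca
The element lies before the signal in Usp28 and Usp37 and after it in Usp22.

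Among members that rose in both lines, 6 of 18 with an annotated 3' UTR of at least 50 bases held the element in this window, which is 33.3%, against 2 of 19 members that fell, which is 10.5%. Over all tested protein-coding genes the shares were 40.6% of those that rose in both lines and 13.7% of those that fell, so the members were near the shares of all genes. The rising members with the element were Usp21, Usp22, Usp28, Usp31, Usp37 and Usp46, and the falling ones were Usp14 and Usp16. The other members that rose, Usp15, Usp45 and Usp1 among them, did not hold these letters in the window. The polyadenylation signal was in the window of 18 of 18 rising and 16 of 19 falling members. Over all tested protein-coding genes it was there in 90.4% of rising and 76.0% of falling genes. The annotated 3' UTR had a median of 3100 bases in rising members and 1050 bases in falling members, where all rising genes had 1610 and all falling genes 800. In the last 100 bases the element was in 16.7% of rising and 0% of falling members, and in 33.3% of all rising and 10.3% of all falling genes. The annotated end need not be the end used in these oocytes, and a match is a description of the sequence only.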

How the data were processed

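The table deposited by the authors holds raw read counts for 8 libraries. The authors used Trimmomatic 0.38, HISAT2 2.1.0, featureCounts 2.0.0 and DESeq2 1.30.1 with the build mm10, per the submitters' processing notes. Libraries were directional, single reads, per the labels' protocols. The strand setting and treatment of multiply matching reads in counting are not stated in any source used here, and 23 members overlap a gene on the other strand and 12 a gene on the same strand. By identifier, 55144 genes matched GENCODE M21 (GRCm38) and 241 did not.

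Counts were tested in edgeR 4.0.16 (R 4.3.3; quasi-likelihood, TMM, filterByExpr at a minimum count of 10, two-sided), in 1 fit over 14929 genes and all 8 libraries with a mean per group and 4 residual degrees of freedom. The common biological coefficient of variation was 0.243, and TMM factors were 0.714 to 0.733 at MII and 1.33 to 1.43 at GV. Standard errors were derived from the log2 fold change and the F statistic. DESeq2 1.42.0, library totals, relative log expression factors, other filters, a replicate block and left-out libraries were alternatives. The method was tested on simulated data.

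The family, the lists and the pairs were chosen with earlier results of these data known, the members by name and the lists and pairs from general knowledge of gene roles. Named members were the 7 largest changes in each direction and line at 10 CPM or more, the 6 highest per length at each stage, members called between lines, a list of always named members and both members of each pair. Of 49 tested members, 47 had an annotated 3' UTR of at least 50 bases.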

Additional observations from a re-analysis of the deposited data

How the results depend on the processing

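Counts of members called stayed within 1.5 times under relative log expression factors, DESeq2, other filters and a fit of only the libraries compared, and the rises were fewer with library totals, at 9 in the sex-converted line and 10 in the native line. Leaving out single libraries gave 17 to 19 rises and 17 to 23 falls in the sex-converted line, and 17 to 19 rises and 16 to 21 falls in the native line, with 0 calls between lines at GV, at MII and in the interaction. Opposite pairs numbered 4 in each line with library totals, 5 in the sex-converted line with a mean of at least 50 reads, and 5 to 8 in each line without single libraries. Replicate numbers did not pair the libraries: replicate differences correlated at 0.0679 between sex-converted MII and GV, -0.0384 between native MII and GV, -0.443 between lines at GV and 0.171 between lines at MII. With the replicate block there were 18 rises, 21 falls and 7 opposite pairs in the sex-converted line, 19 rises, 21 falls and 8 opposite pairs in the native line, and 0 calls between lines or in the interaction. A crossed pairing at GV, chosen after seeing the data, called 0 members. With library totals the sign turned in the sex-converted line for Usp7 (-0.93), Usp21 (-0.029), Usp24 (-0.48), Usp26 (-0.65), Usp32 (-0.78), Usp33 (-0.28), Usp38 (-0.22) and Usp47 (-0.84), and in the native line for Usp7 (-0.89), Usp17lc (-0.49), Usp24 (-0.41), Usp26 (-0.28), Usp32 (-0.69), Usp33 (-0.14), Usp34 (-0.88), Usp38 (-0.32) and Usp47 (-0.75), all log2 fold changes of MII over GV. This follows from the shift of all genes that the scaling brings. With no filter beyond 1 read Usp7 had -0.038 in the sex-converted line and -0.068 in the native line, and Usp34 had -0.068 in the native line. With a mean of at least 50 reads Usp7 had -0.095 and -0.053 in the sex-converted and native lines, Usp47 had -0.0046 in the sex-converted line and Usp34 had -0.052 in the native line, and the cause was not tested. Over left-out libraries the log2 fold change ranged in the sex-converted line over -0.15 to 0.23 for Usp7, -0.36 to 1.51 for Usp26, -0.18 to 0.43 for Usp32 and -0.0023 to 0.19 for Usp47, and in the native line over -0.19 to 0.29 for Usp7, -0.26 to 1.82 for Usp17lc, -0.19 to 0.29 for Usp34 and -0.0068 to 0.36 for Usp47. Low counts limit members such as Usp44, with 3 to 10 reads a library, and Usp50, with 0 to 5 reads at MII.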
